A study of Mus musculus with 6 samples.

Results

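The genes described here are the C/EBP transcription factor family and the Tribbles proteins that regulate its founding member. They are Cebpa, Cebpb, Cebpd, Cebpe, Cebpg and Ddit3 of the C/EBP family, with Trib1 and Trib2. The 8 genes were chosen by name, and each was read by the array row whose annotation names that gene alone. All 8 were measured, each by 1 row, among 19938 genes in all, and none was left out by a filter on dim rows. The samples were LSK CD150- cells, that is bone marrow cells without mature lineage markers that carry Kit and Sca-1 and lack CD150. They were sorted by FACS from 3 Cebpafl/fl;Mx1Cre mice, called deleted here, and 3 Cebpafl/fl mice, called control. Mice of both genotypes carried floxed Cebpa alleles, were injected with pIpC and were killed at day 18. Each mouse was hybridised to an Affymetrix Mouse Gene 1.0 ST array of its own, so n = 3 per genotype. Mx1Cre is Cre recombinase under the interferon-inducible Mx1 promoter, which pIpC switches on, and it acts in many cell types besides blood cells. The control mice lacked the Cre transgene, so an effect of Cre and an effect of losing Cebpa cannot be told apart. The sources used here do not give the ages of the mice.

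C/EBP proteins bind DNA as dimers through a basic region and a leucine zipper, and they pair with each other as well as with other zipper proteins. C/EBPα is known for its part in the step from common myeloid progenitors to granulocyte and monocyte progenitors. C/EBPβ can stand in for it in granulocyte production under infection or cytokine stimulation. C/EBPγ lacks an activation domain, CHOP, the product of Ddit3, has an altered basic region, and both act largely through the partners they bind. TRIB1 and TRIB2 are pseudokinases that bring C/EBPα to the ubiquitin ligase COP1, which marks it for degradation. The arrays measured RNA, so protein levels and that degradation were not read.

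The values are log2 intensities per array row, processed with RMA. Array medians lay between 6.16 and 6.20 on deleted arrays and between 6.22 and 6.23 on control arrays, and 6.20 was the median of all values. Pearson's r across rows, which are not independent replicates, was 0.973 to 0.977 among deleted arrays, 0.976 to 0.978 among control arrays and 0.960 to 0.977 between the genotypes. The labels call the mice female. The Y-linked genes Kdm5d (8.07 to 8.48), Eif2s3y (8.04 to 8.49) and Uty (6.60 to 7.23) read above the median of all values on all 6 arrays, while Xist read 4.46 to 5.13, which goes against that label in both genotypes. Of the genes of the sort gate, Kit read 9.23 to 9.59 on deleted arrays and 10.02 to 10.31 on control arrays, and Slamf1, which encodes CD150, read 3.94 to 4.86 on deleted arrays and 3.48 to 3.93 on control arrays. Kit was called lower (log2 fold change -0.75, limma adjusted p = 0.0270). Of the other markers of these progenitors, Flt3 was called lower (-0.71, 0.0469) and Cd48 higher (1.00, 0.00520), while Cd34 (-0.27) and Ptprc (0.10) did not pass. Kit lost its call whichever array but deleted a was dropped (up to 0.101), Flt3 whichever but deleted c was dropped (up to 0.145) and under each of 3 other normalizations (0.0511 to 0.0582). The part of this difference between the sorted populations in the results below was not tested. Ly6a, which encodes Sca-1, was not analysed here. With 3 arrays a genotype, precision is limited throughout.

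Of the 8 genes, Cebpa was lower in the deleted samples, Cebpd and Cebpg were higher, and the other 5 did not pass the test. The test was limma across all 19938 genes with Benjamini-Hochberg adjustment and a threshold of 0.05. By that rule 1.43% of all genes were called, 0.702% as higher and 0.732% as lower in deleted samples. Genes called higher made up 49% of calls with the deposited values, 61.6% under quantile normalization and 65.8% once the arrays were centred by their medians. The groups of 3 arrays did not overlap for 4 of the 8 genes, against 21.2% of all genes, with 3 higher and 1 lower in deleted samples against 12.5% and 8.68% of all genes. The median log2 fold change was 0.06 over the 8 genes and 0.03 over all genes. With 3 arrays against 3, an exact two-sided permutation test of a single gene cannot give a p below 0.1.

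**Figure D1:**
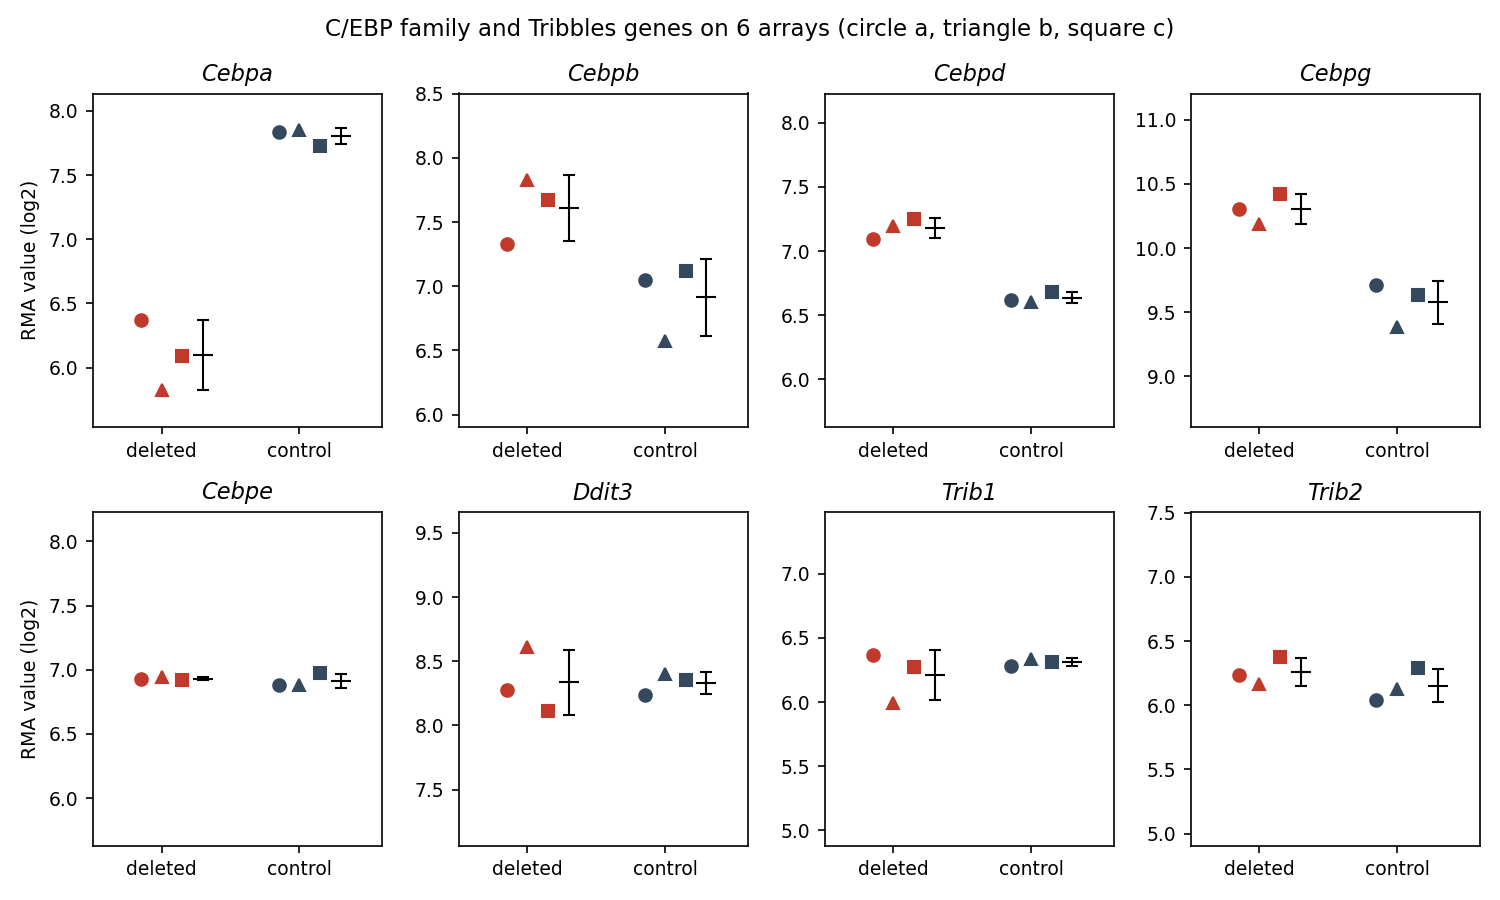
Log2 RMA values (y axis, a span of equal size in each panel but centred on that gene) of the 8 genes on the arrays of deleted (red, left) and control (dark, right) mice, with the mean and SD of each genotype beside the points. The genotypes separate for Cebpa, Cebpb, Cebpd and Cebpg and overlap for Cebpe, Ddit3, Trib1 and Trib2.

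Cebpa, the gene flanked by loxP sites, encodes C/EBPα. It read 6.37, 5.82 and 6.09 in deleted mice a, b and c, against 7.84, 7.85 and 7.73 in control mice a, b and c. The highest deleted array lay 1.36 below the lowest control array on the log2 scale. The deleted arrays were spread over 0.55 and the control arrays over 0.12. Deleted samples averaged 6.09 ± 0.27 and control samples 7.80 ± 0.06 (SD, n = 3 each). The log2 fold change was -1.71 ± 0.14 (SE, limma adjusted p = 0.000883), a ratio of deleted to control of 0.306 with a 95% interval of 0.246 to 0.380. The exact permutation test gave 0.1. The readings of deleted b and c were under the overall median of 6.20, and the part of background in them was not tested. The sources used here do not place this row's probes relative to the loxP sites, so the row checks the labels only as far as it reads the deleted part. These are pooled cells of a mouse, in which fewer cells that express a gene and less of its RNA per cell cannot be told apart.

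Cebpg encodes C/EBPγ, a short member that pairs with other C/EBP proteins and with ATF4. It read 10.31, 10.19 and 10.42 in deleted mice a, b and c, against 9.71, 9.39 and 9.63 in control mice. Every deleted array lay above every control array, with a gap of 0.48 on the log2 scale. Deleted samples averaged 10.31 ± 0.12 and control samples 9.58 ± 0.17 (SD, n = 3 each). The rise was 0.73 ± 0.12 on the log2 scale (SE, limma adjusted p = 0.0240), or 1.66-fold, and the 95% interval of the log2 value was 0.46 to 1.00. With single arrays left out, the log2 fold change stayed between 0.63 and 0.80. The adjusted p was 0.0683 without deleted a, 0.0631 without deleted b, 0.0727 without deleted c and 0.0881 without control b, and 0.0442 without control a and 0.0479 without control c.

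Cebpd encodes C/EBPδ, which is known to be induced by cytokines such as IL-6 and G-CSF. It read 7.10, 7.20 and 7.25 in deleted mice a, b and c, against 6.62, 6.60 and 6.68 in control mice. The arrays of each genotype lay close together, over 0.16 in deleted and 0.08 in control samples, and the gap between the genotypes was 0.41. Deleted samples averaged 7.18 ± 0.08 and control samples 6.64 ± 0.04 (SD, n = 3 each). The rise was 0.55 ± 0.10 on the log2 scale (SE, limma adjusted p = 0.0336), or 1.46-fold with a 95% interval of 1.25 to 1.70. It stayed between 0.51 and 0.59 when arrays were left out in turn. The adjusted p was then 0.0618 without deleted a, 0.102 without deleted b, 0.0950 without deleted c, 0.0928 without control a, 0.120 without control b and 0.0640 without control c, so no fit on 5 arrays called it.

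Cebpb encodes C/EBPβ. It read 7.33, 7.83 and 7.67 in deleted mice a, b and c, against 7.05, 6.57 and 7.12 in control mice. All deleted arrays lay above all control arrays, but the gap of 0.20 was smaller than the range of either genotype, 0.51 in deleted and 0.55 in control samples. Deleted samples averaged 7.61 ± 0.26 and control samples 6.91 ± 0.30 (SD, n = 3 each). Its log2 fold change, 0.70 ± 0.17 (SE), missed the threshold (limma adjusted p = 0.0909). Its ratio of 1.62 had a 95% interval of 1.23 to 2.12. Cebpb passed in none of the 17 alternative fits, with adjusted p-values from 0.0609 to 0.238. The intervals of Cebpb, Cebpd and Cebpg overlapped, and whether these 3 genes differed from each other in their change was not tested.

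**Figure D2:**
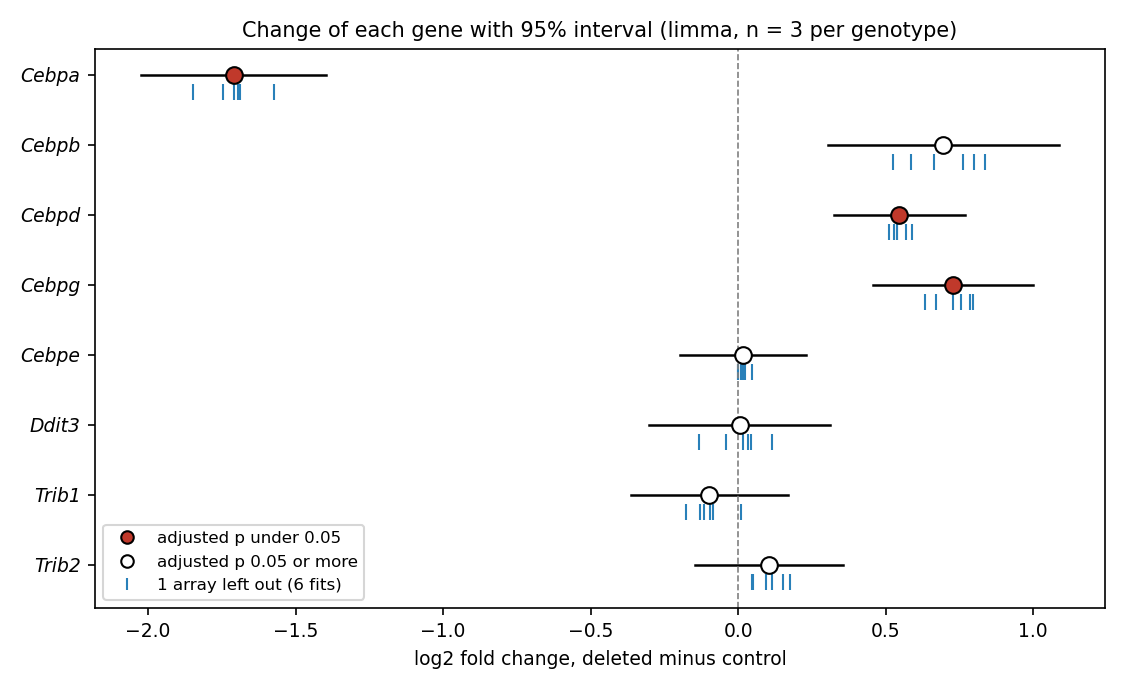
Log2 fold change of each gene, deleted minus control (x axis), with the 95% interval of the limma fit on 6 arrays and, below it, the 6 values with an array left out. Cebpa lies at -1.71, Cebpb, Cebpd and Cebpg between 0.55 and 0.73, and the intervals of the other 4 genes include 0.

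Cebpe encodes C/EBPε, which drives the late steps of granulocyte formation and the genes of secondary granules. It read 6.93, 6.94 and 6.92 in deleted mice a, b and c, against 6.88, 6.88 and 6.98 in control mice. The genotypes overlapped, and both sets of arrays lay within 0.10. The log2 fold change was 0.02 ± 0.10 (SE, limma adjusted p = 0.954), and the ratio of 1.01 had a 95% interval of 0.872 to 1.17. That interval did not reach the 1.46-fold of Cebpd.

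Ddit3 encodes CHOP, the family member induced by stress of the endoplasmic reticulum and by amino acid shortage. It read 8.28, 8.61 and 8.11 in deleted mice a, b and c, against 8.24, 8.40 and 8.35 in control mice. The deleted arrays enclosed all 3 control arrays. The log2 fold change was 0.01 ± 0.14 (SE, limma adjusted p = 0.989), with a ratio of 1.00 and a 95% interval of 0.811 to 1.24. Its sign was not stable, at -0.13 without deleted b, -0.04 without control a and -0.01 after cyclic loess normalization.

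Trib1 encodes a Tribbles protein known to drive the degradation of C/EBPα. It read 6.37, 5.99 and 6.27 in deleted mice a, b and c, against 6.28, 6.34 and 6.31 in control mice. The control arrays lay within 0.06 of each other, while the deleted arrays spread over 0.37, with deleted b lowest and deleted a highest of all 6. The log2 fold change was -0.10 ± 0.12 (SE, limma adjusted p = 0.751), and the ratio of 0.934 had a 95% interval of 0.777 to 1.12. Without deleted b it was 0.01.

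Trib2 encodes a Tribbles protein that, like TRIB1, is known to cause acute myeloid leukaemia in mice when overexpressed. It read 6.24, 6.16 and 6.37 in deleted mice a, b and c, against 6.04, 6.13 and 6.29 in control mice. The genotypes overlapped, and 3 of the 6 arrays lay below the median of all values. The log2 fold change was 0.11 ± 0.11 (SE, limma adjusted p = 0.709), and the ratio of 1.08 had a 95% interval of 0.905 to 1.28. Trib1 fell below the median of all values on 1 array, so signal over background was not separated for either Tribbles gene.

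Among the deleted mice, the array with the lowest Cebpa, that of mouse b, had the highest Cebpb (7.83), Cebpe (6.94) and Ddit3 (8.61). It also had the lowest Cebpg (10.19), Trib1 (5.99) and Trib2 (6.16). Deleted a had the highest Cebpa (6.37) and Trib1 (6.37), the lowest Cebpb (7.33) and the lowest Cebpd (7.10). Deleted c had the highest Cebpd (7.25), Cebpg (10.42) and Trib2 (6.37) and the lowest Cebpe (6.92) and Ddit3 (8.11). With 3 arrays these orders are a description only.

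Cebpa and Cebpg lie close together on mouse chromosome 7. Promoters are shown for Cebpa, which fell, for Cebpg, which rose, and for Cebpb, which lay higher on every deleted array, so that the letters before genes that moved in opposite directions can be set side by side. They are the 250 bases before the annotated start, from RefSeq on GRCm38.p6, read 5′ to 3′ on the strand of the gene. A promoter was used for 5 of the 8 genes, Cebpa, Cebpb, Cebpg, Ddit3 and Trib2, and not for Cebpd, Cebpe and Trib1. The windows are chr7:35119043-35119292 on the plus strand for Cebpa, chr7:35056567-35056816 on the minus strand for Cebpg and chr2:167688665-167688914 on the plus strand for Cebpb. Capitals mark matches to any of 3 short motifs, searched on both strands. They are TTGCG, a run of letters found in C/EBP sites and called the C/EBP core here (CGCAA in reverse), and CCAAT, the CCAAT box (ATTGG in reverse). The third is TGACG, the core of sites for CREB and ATF proteins (CGTCA in reverse).
Cebpa: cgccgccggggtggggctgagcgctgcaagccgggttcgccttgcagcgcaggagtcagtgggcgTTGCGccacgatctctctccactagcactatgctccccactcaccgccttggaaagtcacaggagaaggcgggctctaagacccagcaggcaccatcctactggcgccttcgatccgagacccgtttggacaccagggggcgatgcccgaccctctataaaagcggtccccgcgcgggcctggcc
Cebpg: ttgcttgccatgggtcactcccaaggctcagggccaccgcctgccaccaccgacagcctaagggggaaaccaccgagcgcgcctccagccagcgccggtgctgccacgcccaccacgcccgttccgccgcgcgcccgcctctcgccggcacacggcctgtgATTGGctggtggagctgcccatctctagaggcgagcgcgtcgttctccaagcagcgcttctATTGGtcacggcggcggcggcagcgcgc
Cebpb: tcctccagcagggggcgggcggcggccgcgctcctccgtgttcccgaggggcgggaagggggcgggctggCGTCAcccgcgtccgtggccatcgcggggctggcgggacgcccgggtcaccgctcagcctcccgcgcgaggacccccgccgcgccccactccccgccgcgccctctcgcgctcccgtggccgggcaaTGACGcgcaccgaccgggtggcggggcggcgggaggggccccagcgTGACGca
The Cebpa window held 1 C/EBP core, starting 185 bases before the start of the gene, and neither of the other motifs. C/EBP proteins are known to bind the mouse Cebpa promoter. The Cebpg window held 2 CCAAT boxes, on the strand opposite to the gene, 89 and 28 bases before the start. The Cebpb window held 3 CREB cores, 180, 53 and 7 bases before the start. The Ddit3 window held 1 CCAAT box and the Trib2 window none of the 3 motifs. No matches overlapped. Of the 27025 promoters of the same length in the table, 14.6% held the C/EBP core, 34.5% the CCAAT box and 17.9% the CREB core. The 3 genes printed thus shared none of these motifs, and a match is a run of letters and not a measured binding site.

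The genes beside Cebpa were read next, since Cebpg is a close neighbour of the deleted gene. Of 10 annotated protein-coding neighbours, 5 on each side in the order of RefSeq, 9 were measured. Cebpg, 2 places before Cebpa and a member described above, was the single neighbour called, where 1.43% of all genes were. Between it and Cebpa lies the predicted gene Gm45095, which was not analysed here. Slc7a10, an amino acid transporter gene that directly follows Cebpa, read 6.21, 6.19 and 6.23 in deleted mice and 6.36, 6.24 and 6.12 in control mice. Its log2 fold change was -0.03 ± 0.10 (SE, limma adjusted p = 0.921). Pepd, the dipeptidase gene on the far side of Cebpg, had a log2 fold change of 0.17 ± 0.17 (SE, limma adjusted p = 0.668). Wdr88, 3 places after Cebpa, had the largest value of the uncalled neighbours, 0.37 ± 0.14 (SE, limma adjusted p = 0.228), and read 4.71 ± 0.22 in deleted and 4.33 ± 0.17 in control samples (SD, n = 3 each), both far below the median of all values. The other 5, Kctd15, Chst8, Lrp3, Gpatch1 and Rhpn2, lay between -0.07 and 0.07. The median of the 9 neighbours was 0.03, as over all genes.

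**Figure D3:**
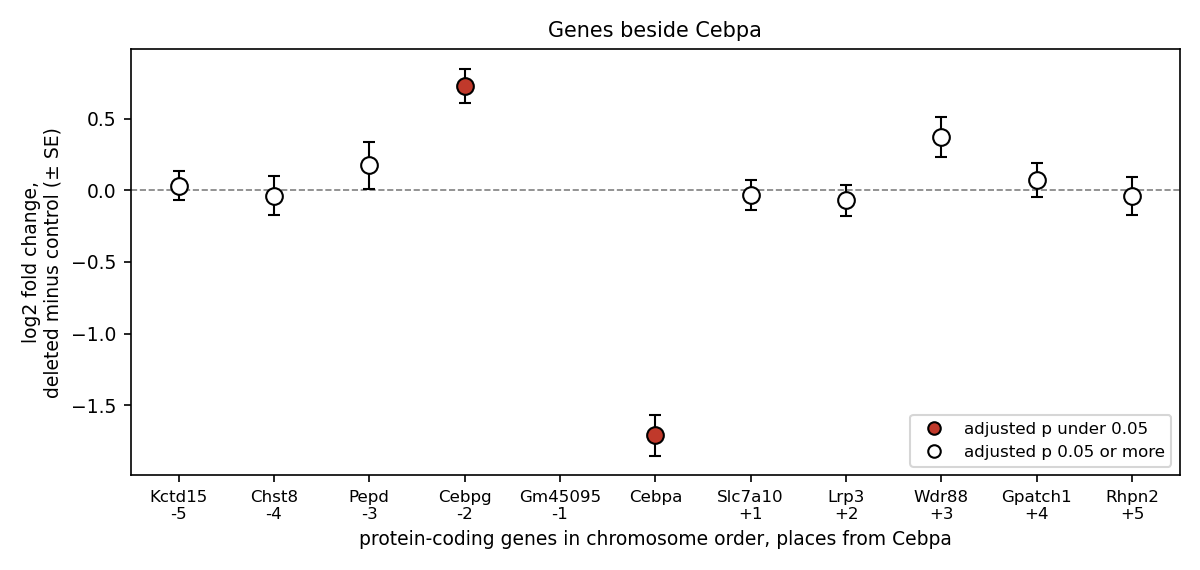
Log2 fold change, deleted minus control, with its SE (y axis) of Cebpa and the 5 annotated protein-coding genes on each side, in chromosome order (x axis). Cebpa lies at -1.71 and Cebpg at 0.73, while the other measured neighbours lie between -0.07 and 0.37. Gm45095 has no value.

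The genes whose values over the 6 arrays were most like those of each called member were found by Pearson's r among 9368 genes. These were genes at or above the median intensity other than members, short RNAs, olfactory and vomeronasal receptors, antigen receptor segments and symbols without a descriptive name. Apart from members, genes were left out by how their symbols are spelled, so named genes whose symbols begin with Rn were left out too. The closest genes describe likeness over 2 groups of 3 arrays, in which any gene that separates the genotypes scores high, and no p is given for r. The adjusted p-values below are those of the limma fit over all genes. They come from the same arrays that picked these genes, so they are a description only. Closest to Cebpa were Txnip (r = 0.993), an inhibitor of thioredoxin, Hk3 (r = 0.992), a hexokinase of myeloid cells, and Pomgnt2 (r = 0.992), a glycosyltransferase gene. Txnip fell by 0.86 ± 0.10 (SE, limma adjusted p = 0.00671) and Hk3 by 1.50 ± 0.12 (SE, limma adjusted p = 0.000883), while Pomgnt2, at -0.28, did not pass (adjusted p = 0.186). Closest to Cebpd were Spint1 (r = 0.995), a protease inhibitor gene, Abhd17b (r = 0.995), which encodes a depalmitoylase, and Tab3 (r = 0.994), an adaptor of the kinase TAK1. Spint1 rose by 0.73 and Abhd17b by 1.22 (limma adjusted p = 0.0111, or 0.0542 without control b, and 0.00481), and Tab3, at 0.39, did not pass (0.0853). Closest to Cebpg were Hus1 (r = 0.996), a DNA damage checkpoint gene, Ncbp3 (r = 0.994), which encodes an RNA cap-binding protein, and Eif1ax (r = 0.994), a translation initiation factor. Hus1 rose by 0.52 (limma adjusted p = 0.0492), a call lost without any single array (0.0915 to 0.170), whereas Ncbp3, at 0.46, and Eif1ax, at 0.21, did not pass (0.0863 and 0.328).

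Around the family, 73 genes of 6 lists were measured, some in more than 1 list. None was called higher and 4 were called lower, all of them granulocyte genes, and the median log2 fold change of the 73 was 0.03. By the same rule 0.702% of all genes were called higher and 0.732% lower. Without adjustment 21 of the 73 had a limma p under 0.05, against 15.9% of all genes.

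Of 16 genes of myeloid and other cells known as targets that C/EBPα activates, 4 fell and none rose. S100a8, a calcium-binding protein of neutrophils, read 5.03, 4.74 and 4.86 in deleted mice a, b and c, against 8.37, 8.22 and 8.58 in control mice. Its partner S100a9 read 6.08, 5.86 and 5.50 in deleted mice, against 9.45, 8.99 and 9.10 in control mice. Every deleted array lay far below every control array for this pair, with log2 fold changes of -3.51 ± 0.13 and -3.37 ± 0.17 (SE, limma adjusted p = 2.2e-06 and 3.0e-05). Both genes lay below the median of all values on all 3 deleted arrays, and the part of background in those readings was not tested. Csf3r, the G-CSF receptor, read 7.52, 6.96 and 6.61 in deleted mice, against 7.97, 8.27 and 8.12 in control mice (log2 fold change -1.09 ± 0.20 SE, limma adjusted p = 0.0376). Camp, an antimicrobial peptide of granules, read 6.29, 6.01 and 5.95 in deleted mice, against 7.10, 6.74 and 7.31 in control mice (log2 fold change -0.97 ± 0.16 SE, limma adjusted p = 0.0230). The call of Csf3r was lost without deleted b, deleted c or any control array, and that of Camp without deleted b, deleted c, control a or control c, reaching adjusted p-values of 0.130 for Csf3r and 0.0915 for Camp.

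The other 12 genes of that list did not pass. They include genes of primary granules that are on in early progenitors: Mpo, myeloperoxidase, had a log2 fold change of 0.25 ± 0.20 (SE, limma adjusted p = 0.616), Ctsg, cathepsin G, 0.26 ± 0.11 (0.297), Elane, neutrophil elastase, -0.57 ± 0.15 (0.103) and Prtn3, proteinase 3, -0.31 ± 0.13 (0.269). Gfi1, a transcription factor of granulocytes, stood at -0.21 and the IL-6 receptor gene Il6ra at -0.21. The median of the 16 was -0.23, against 0.03 over all genes. Without adjustment 8 of the 16, the 4 called genes among them, had a limma p under 0.05, against 15.9% of all genes. Of the 3 genes reported to be held down by C/EBPα, none passed, and Sox4 had the smallest p (log2 fold change 0.52 ± 0.16 SE, limma adjusted p = 0.157), with Mycn at 0.27 and Myc at 0.18.

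Of 12 markers of mature neutrophils 4 fell and none rose, and the mean level of the 12 was 5.31 to 5.38 on deleted arrays and 6.11 to 6.17 on control arrays. The 4 were again S100a8, S100a9, Csf3r and Camp. The other 8 had a mean level of 4.95 to 5.10 on deleted arrays and 5.03 to 5.20 on control arrays. Among them Cxcr2, a chemokine receptor, stood at 0.46 (limma adjusted p = 0.122) with every deleted array above every control array. Ngp stood at -0.61 (0.152) and Lcn2 at -0.25 (0.360), each with every deleted array below every control array. Of all 12 markers, 9 lay below 0 and 3 above. The genotypes did not overlap for 6 that were lower and 1 that was higher, against 8.68% and 12.5% of all genes. Cxcr2 and Ngp each lay below the median of all values on 5 of the 6 arrays, and Lcn2 on all 6. Ly6g, a defining marker of neutrophils, read 3.54 to 3.71 on deleted arrays and 3.49 to 4.76 on control arrays. Of 9 markers of mast cells and basophils, Cpa3 (log2 fold change 3.47) and Gzmb (2.20) rose and none fell, and the list median was 0.09. The call of Gzmb was lost if any array but deleted a was left out (limma adjusted p up to 0.124), and its 4.59-fold rise became 2.93-fold without deleted a. The mean level of the 9 was 6.25 to 6.68 on deleted arrays and 5.76 to 5.82 on control arrays. The 7 markers other than this pair did not pass, with a mean level of 5.39 to 5.60 on deleted arrays and 5.45 to 5.54 on control arrays. Among them Ms4a2, the β chain of the IgE receptor, stood at 0.53 and Cma1, a mast cell chymase, at -0.45. The genotypes did not overlap for either, as for 21.2% of all genes. Fcer1a, the α chain of the IgE receptor, stood at -0.07. Each of these genes lay below the median of all values on all 6 arrays. Of 8 markers of monocytes and macrophages, cells in which C/EBPβ is abundant, Cd68 was called lower (-0.90) and none higher. Their mean level was 6.23 to 6.37 on deleted arrays and 6.16 to 6.36 on control arrays. The 7 other than Cd68 had a mean level of 6.11 to 6.28 on deleted arrays and 5.89 to 6.15 on control arrays. Itgam stood at 0.41 (limma adjusted p = 0.146), with every deleted array above every control array, as for 12.5% of all genes. Ccr2 stood at 0.43 (0.390), below the median of all values on all 6 arrays. Of the 8 markers, 5 lay above 0 and 3 below. The part of these cell types in the values of the C/EBP genes was not tested.

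Upstream of Cebpb and Cebpd, 13 receptors and signal transducers were measured. Csf3r fell and none rose. Csf2rb, the common β chain of the GM-CSF, IL-3 and IL-5 receptors, read 7.97, 7.63 and 7.68 in deleted mice, against 6.61, 7.20 and 7.21 in control mice. Its arrays did not overlap, but the change, 0.76 ± 0.17 on the log2 scale (SE), missed the threshold (limma adjusted p = 0.0687). Socs3, the feedback inhibitor of cytokine receptors that STAT3 induces, read 7.71, 7.22 and 7.47 in deleted mice, against 7.13, 7.01 and 6.95 in control mice, and did not pass either (log2 fold change 0.44 ± 0.13 SE, limma adjusted p = 0.153). Stat3 stood at 0.25 and Il6st, the signalling chain of the IL-6 receptor, at 0.39. In the other direction, Tlr4 stood at -0.30 (limma adjusted p = 0.254), Ifngr2 at -0.31 (0.322) and Il6ra at -0.21 (0.391). Of the 13 genes, 8 lay above 0 and 5 below. The genotypes did not overlap for 3 that were higher and 2 that were lower, against 12.5% and 8.68% of all genes. Without adjustment 5 of the 13 had a limma p under 0.05, against 15.9% of all genes. The median of the list was 0.06.

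Of 15 leucine-zipper proteins known to pair with C/EBP proteins, none passed. An unadjusted limma p under 0.05 was found for 3, against 15.9% of all genes. Jund, an AP-1 subunit, had the smallest p and read 7.98, 8.08 and 8.15 in deleted mice, against 7.83, 7.56 and 7.60 in control mice (log2 fold change 0.40 ± 0.11 SE, limma adjusted p = 0.123). Jun stood at 0.49 (adjusted p = 0.190) and Atf3, a stress-induced repressor, at -0.26 (0.238). Atf4, the main partner of C/EBPγ in the amino acid response, had a log2 fold change of 0.13 ± 0.12 (SE, limma adjusted p = 0.657), with deleted arrays at 8.04, 7.84 and 8.06 and control arrays at 8.03, 7.72 and 7.78. The median of the list was 0.04.

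The ubiquitin ligase that Tribbles proteins use was read together with Trib3 and with Map2k1, which encodes the kinase MEK1 that binds Tribbles proteins. Of these 9 genes none passed and 2 had an unadjusted limma p under 0.05, against 15.9% of all genes. Det1, which encodes a subunit that links COP1 to the ligase, had the smallest p and read 7.28, 6.99 and 7.26 in deleted mice, against 6.72, 6.73 and 6.84 in control mice (log2 fold change 0.41 ± 0.11 SE, limma adjusted p = 0.122). Cop1 itself stood at 0.11 ± 0.12 (SE, adjusted p = 0.727), Cul4b, a scaffold subunit, at 0.34 (0.195), and Trib3, the remaining Tribbles gene, at 0.02 (0.953). The median of the list was 0.02.

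Of 22 genes of the stress response around Ddit3, none passed. An unadjusted limma p under 0.05 was found for 4, against 15.9% of all genes. Tnfrsf10b, a death receptor gene that CHOP is known to induce in human cells, had the smallest p and read 5.12, 5.37 and 5.28 in deleted mice, against 5.52, 5.93 and 5.83 in control mice (log2 fold change -0.50 ± 0.13 SE, limma adjusted p = 0.103). All 6 values lay below the median of all values. The others of these 4 were Ddit4 at 0.34 (limma adjusted p = 0.161), Eif2ak2 at 0.31 (0.255) and Atf3 at -0.26 (0.238). The genotypes did not overlap for 2 genes of the list that were higher and 2 that were lower, against 12.5% and 8.68% of all genes. Hspa5, the chaperone BiP, stood at -0.15, Ppp1r15a, the phosphatase subunit GADD34, at 0.04, Asns, asparagine synthetase, at 0.01 and Chac1 at 0.01. Of the 22 genes, 16 lay above 0 and 6 below. The median of the list was 0.04.

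**Figure D4:**
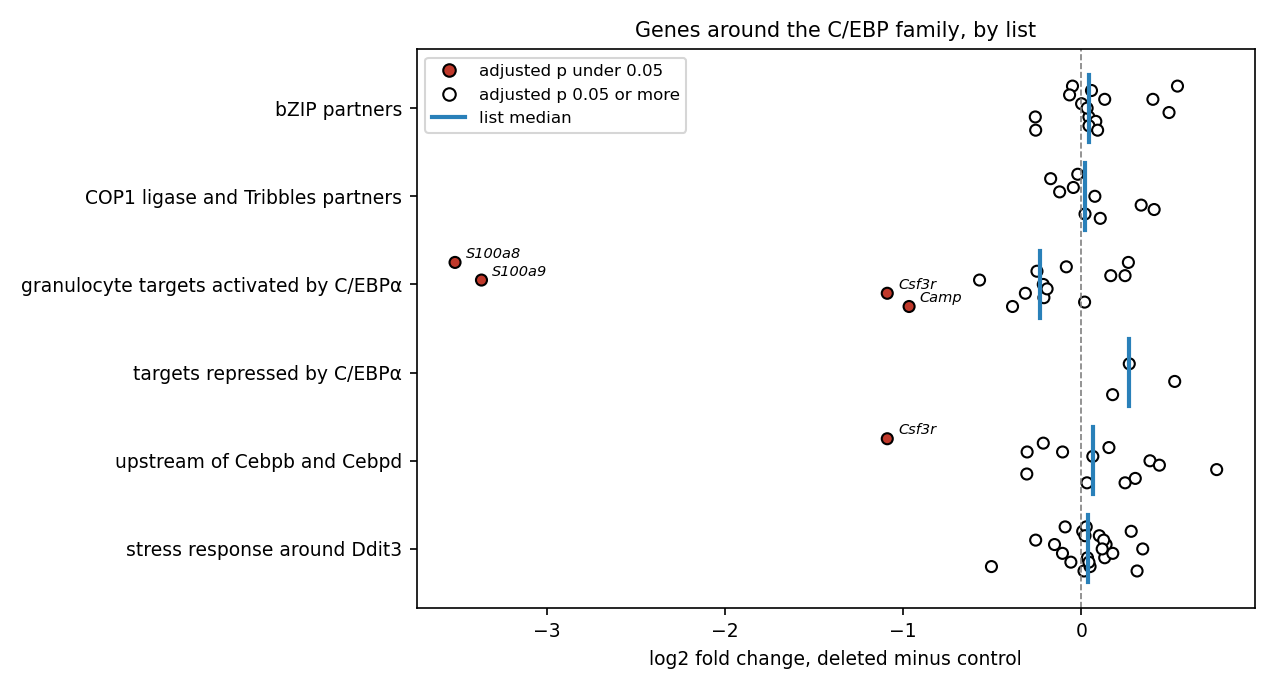
Log2 fold change, deleted minus control (x axis), of each measured gene in 6 lists around the C/EBP family (rows), with red points for genes past an adjusted p of 0.05 and a blue bar at each list's median. The called genes are S100a8, S100a9, Csf3r and Camp, all lower in deleted samples, and Csf3r appears in 2 lists.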

How the data were processed

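Total RNA of sorted cells from 6 mice (20 ng each) was amplified, and 2.5 µg of cDNA was labelled and hybridised, per the labels' protocols. The authors deposited log2 values per array row. The submitters' processing notes name RMA, which corrects background, normalizes and summarises probes, and Affymetrix Expression Console 1.1.2. Settings and annotation build: not given in the sources used. The 35556 rows were used as deposited, with no filter. Rows were named from the platform annotation: 21789 name 1 gene, 1621 several, and 12146 are unnamed here. Where several rows named a gene (999 genes), the brightest by its mean over 6 arrays stood for it, giving 19938 genes. RefSeq (GRCm38.p6), matched to 19855 of them, gave names, gene order and promoters.

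The genotype comparison used lmFit and eBayes of limma 3.58.1 (R 4.3.3); its two-sided p-values were adjusted by Benjamini-Hochberg across the 19938 genes. Differences are deleted minus control. Motifs, neighbours and likeness were computed in Python 3.11.15 with pandas 2.3.3 and NumPy 2.4.6, and figures with matplotlib 3.10.9. The procedure was tested on simulated data. The labels name no batch.

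Named were all 8 members, the 3 genes most like each called member, the 5 neighbours on each side of Cebpa, and in each of 6 lists the called genes or the gene with the smallest p. Other genes of the lists and markers were named after their values were seen. The members and lists were chosen with earlier results of these data known, and the lists come from general knowledge. The alternatives were a trend or robust prior, intensity filters, 3 other normalizations, other treatments of rows, a replicate block, array weights and leaving out each array.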

Additional observations from a re-analysis of the deposited data

How the results depend on the processing

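The 17 alternatives kept the sign of Cebpa, Cebpb, Cebpd, Cebpe, Cebpg and, among the 16 fits that held it, Trib2. Ddit3 turned to -0.014 after cyclic loess normalization, -0.133 without deleted b and -0.0422 without control a, and Trib1 turned to 0.0106 without deleted b. With single arrays left out Ddit3 ranged from -0.133 to 0.116 and Trib1 from -0.177 to 0.0106, and no fit called either. Of the 8 members 3 were called, and 1 to 2 when an array was left out. With every deposited row tested, 0 members were called by limma (adjusted p = 0.0513 for Cebpa, 0.122 for Cebpd and 0.131 for Cebpg), where p-values were adjusted over 35556 rows and the variance prior was refitted. The unadjusted p was under 0.05 for 4 members, these 3 and Cebpb, there and in each of the other alternatives. The 286 genes called over all genes became 13 over all rows, 438 in the brighter part of the genes (mean intensity not below the median gene), and 53 (without control b) to 250 (without control c) when an array was left out. Fewer arrays or another number of tests enter each of these fits, and the cause was not tested further.

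Across genes, the deviations of same-lettered arrays of the genotypes had r = -0.011 for a, -0.039 for b and 0.061 for c. Pairs with different letters ranged from -0.101 (deleted a with control c) to 0.111 (deleted a with control b). Since the same-lettered values lie within that range and few arrays enter, r cannot decide whether same-lettered mice shared more than a letter. With the letter as a replicate block, 274 genes and 2 members were called, and Cebpd had an adjusted p of 0.0579. Detection calls were not analysed here, and signal over background limits what can be said of rows near or below 6.20, such as Trib1, Trib2 and Cebpa in deleted samples.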
